A study of Mus musculus with 6 samples.

Results

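The adhesion genes described here are the cadherins, protocadherins, contactins, contactin-associated proteins, neurexins and neuroligins measured in sorted Pitx3-GFP neurons of mouse embryos. They were taken by gene symbol, as every non-control probe whose platform symbol began with Cdh or Cntn and a digit, or with Pcdh, Cntnap, Nrxn or Nlgn, and the endothelial cadherin gene Cdh5 was left out. No measured value entered this rule, though it was set with earlier results of these data known. The 212 probes represented 78 of the 18295 genes measured, and each gene was read from its brightest probe. Cdhr2 and Cdhr4 are the current names of the genes that the platform lists as Pcdh24 and Cdh29, and the brightest probe of Cdhr4 already carried that name. The set holds 5 type I and 12 type II classical cadherins, 6 other cadherins, 24 clustered, 9 delta and 4 other protocadherins, 6 contactins, 7 contactin-associated proteins, 2 neurexins and 3 neuroligins.

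Gene expression was compared between 2 genotypes of neurons sorted by flow cytometry from dissected E14.5 brain. Pitx3(gfp/+) neurons, called heterozygous here, came as 3 pools of several embryos with 69000 to 83000 cells each, and Pitx3(gfp/-) neurons, called null here and written Pitx3-GFP/AK in the source names, as 1 pool. The GFP allele of Pitx3, a homeodomain transcription factor gene of midbrain dopaminergic neurons, marked the cells and is carried by both genotypes, so no group lacks it. The 6 two-colour arrays set each heterozygous pool against the same null pool with the dyes in both orientations, and arrays are called Cy5-null or Cy3-null after the dye of the null RNA. All ratios below are log2 of null over heterozygous, the mean of 3 pools with the SD between pools, where a pool is the mean of its 2 arrays. The Pitx3 probe itself read -0.08 ± 0.32, and since its position in the gene is not known here it does not check the labels. Because the null RNA was 1 pool, the p-values hold the spread of heterozygous pools and not that of null pools. The 3 null levels of a gene or marker list are repeat readings of this 1 pool. Where such readings lie apart from the heterozygous levels, the share of all genes that do the same was not counted.

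Cadherins are calcium-dependent adhesion proteins that bind the same or like molecules on the next cell, and the classical ones hold on to actin through catenins. Protocadherins share the extracellular repeats but not the catenin-binding tail. The clustered ones give neurons a combinatorial surface identity, and the delta ones are expressed in patterns that differ between brain nuclei and fibre tracts. Contactins are lipid-anchored immunoglobulin-class proteins of axons that pair with contactin-associated proteins, and presynaptic neurexins bind postsynaptic neuroligins across the synapse. In developing neurons such proteins take part in migration, axon bundling and the first synaptic contacts.

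Few of the adhesion genes passed the test between the genotypes. At an adjusted p under 0.05 in limma, 1 of the 78 was higher in the null pool, Cdh26, and 1 was lower, the delta protocadherin gene Pcdh9. That is 2.56% of the members, against 4.96% of all genes. In the upward direction 1.28% of members passed against 3.09% of all genes, and in the downward direction 1.28% against 1.87%. At an unadjusted p under 0.05 there were 10 members, or 12.8%, against 20.5% of all genes. A ratio of the same sign on all 6 arrays was found for 8 members (10.3%) and for 20.2% of all genes. The ratios of the 78 members ran from -0.36 to 0.23, and their median was -0.0159 against -0.0027 for all genes. None of the members reached 2-fold, and of all 18295 genes only 10 did.

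The promoter windows of both called genes are shown because the genotypes differ in a transcription factor gene. They run from 250 bases before to 50 after the annotated start and come from RefSeq on GRCm38.p6. Capitals mark TAATCC, the core motif of Pitx-type homeodomain proteins, or its reverse complement, and all other letters are lower case. The Cdh26 window is chr2:178430265-178430564 on the plus strand, and the Pcdh9 window shown is chr14:93890620-93890919 on the minus strand. A second annotated start of Pcdh9 gives the window chr14:93890630-93890929, which overlaps it and also held 0 matches.
Cdh26: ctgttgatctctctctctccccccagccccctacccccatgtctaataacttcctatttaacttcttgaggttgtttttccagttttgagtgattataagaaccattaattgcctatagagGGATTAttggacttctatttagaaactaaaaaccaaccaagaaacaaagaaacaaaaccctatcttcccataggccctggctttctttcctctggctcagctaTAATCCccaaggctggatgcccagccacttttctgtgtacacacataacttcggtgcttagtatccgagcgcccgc
Pcdh9: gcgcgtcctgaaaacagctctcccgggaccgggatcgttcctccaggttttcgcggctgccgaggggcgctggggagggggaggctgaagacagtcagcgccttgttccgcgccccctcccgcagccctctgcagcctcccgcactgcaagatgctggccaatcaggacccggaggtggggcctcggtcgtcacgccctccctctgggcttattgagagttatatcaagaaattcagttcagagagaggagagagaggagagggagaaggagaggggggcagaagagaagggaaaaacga
The Cdh26 window held 2 matches, beginning at bases 122 and 225 from its 5′ end, and the Pcdh9 window held 0. Windows were matched for 36 of the members, 47 windows in all, and 3 of these (6.38%) held the motif, 1 each of Cdh26, Cdh7 and Cntnap2. Of all 32851 windows searched, 7.06% held it. Left out before the search were the windows of the chromosome that carries the clustered protocadherins, Cdh2, Pcdh1 and Pcdh12. Those members were thus not searched, and the shares given here do not cover the whole genome. The motif AAAGGTCA of Nr4a nuclear receptors, which neither contains the first nor lies within it, was found in 1.51% of all windows and in 0 of the 47. Both strands were searched. A match is a description of these letters and no evidence of binding.

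Cdh26 encodes an atypical cadherin known in human from epithelia. Its normalized level (log2 intensity) was 6.50, 6.56 and 6.55 in the null RNA set against pools 1, 2 and 3, and 6.26, 6.33 and 6.33 in the heterozygous RNA. Every null reading lay above every heterozygous value. The ratios of the 6 arrays lay between 0.20 and 0.25, and those of the pools were 0.24, 0.23 and 0.22. The gene was thus higher by 0.23 ± 0.0091 (SD, n = 3 pools; limma adjusted p = 0.0301), a fold of 1.17. The probe is dim. Its signal above local background averaged 41.3 in the null and 27.4 in the heterozygous RNA, and with plain background subtraction, without the offset that shrinks dim ratios, the ratio was 0.60 ± 0.040. The call was lost in that setting, as it was with median centring, a trended robust variance or no moderation, where 0 of all genes passed (2573 to 3305 at an unadjusted p under 0.05). Cdh26 had 1 probe on the array. Without 1 pool or another its ratio stayed at 0.23 to 0.24, but with 2 pools 0 of the 18295 genes passed (2956 to 3259 at an unadjusted p under 0.05 in limma), so every call named here was lost.

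Pcdh9 was lower in the null pool, with levels of 6.74, 6.80 and 6.80 against 7.13, 7.06 and 7.03 in the heterozygous pools. Every null reading lay below every heterozygous level, and all 6 arrays lay below 0. The Cy5-null arrays of pools 1, 2 and 3 read -0.48, -0.31 and -0.30, and the Cy3-null arrays -0.30, -0.21 and -0.15. Each pool was thus further from 0 on its Cy5-null array. The ratio was -0.29 ± 0.086 (n = 3 pools; limma adjusted p = 0.0474), a fold of 1.22, and with plain subtraction it was -0.50 ± 0.15. This call was lost in the same 4 settings as that of Cdh26. Pcdh9 had 15 probes, and the call belongs to the brightest of them. The 3 further probes above background read -0.13 ± 0.18, 0.08 ± 0.026 and 0.05 ± 0.075, so that 2 of the 3 had the other sign. The mean over all 15 probes was -0.020 (adjusted p = 0.654). On the Cy3-null arrays alone the ratio was -0.22 (limma adjusted p = 0.0727), and without 1 pool or another it ran from -0.32 to -0.24, without a call. Which transcripts the probes read was not examined.

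**Figure D1:**
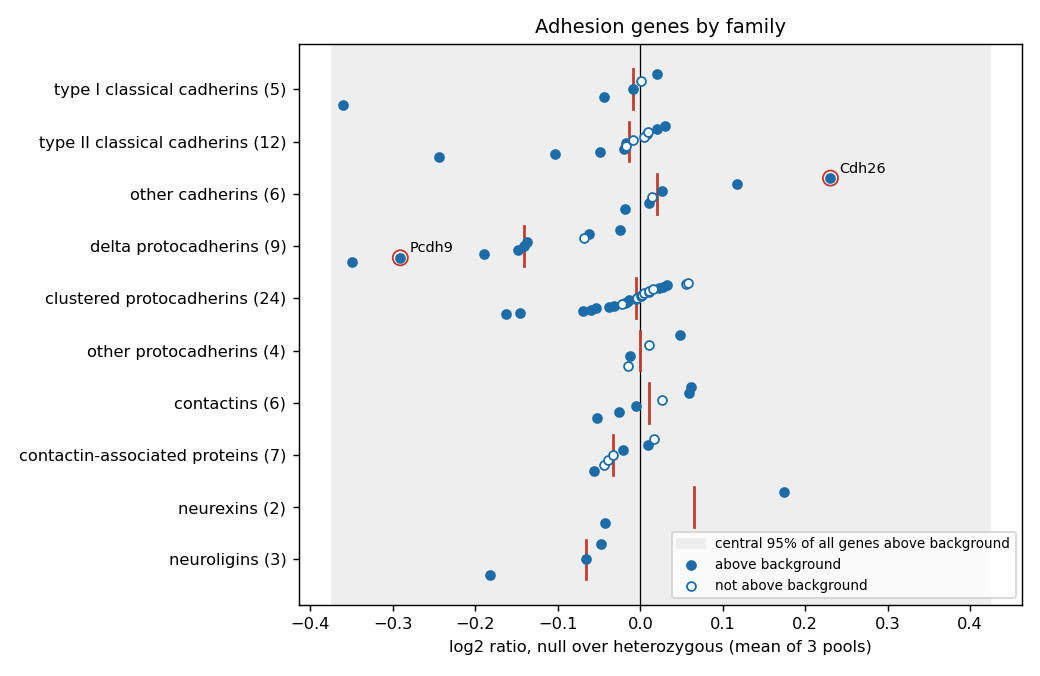
Log2 ratio of null over heterozygous for the 78 adhesion genes (x axis, mean of 3 pools) by family, with the number of genes in brackets. Filled points are above background, open points are not, red bars are family medians, ringed points passed limma's adjusted p, and the grey band holds the central 95% of all genes above background, -0.37 to 0.42. All 53 filled points lie inside the band, and the 9 delta protocadherins all lie below 0.

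All 9 delta protocadherins had ratios below 0 where 52.2% of all genes did, with a median of -0.14 (SD of the 3 pools' medians 0.075). In this family 8 genes were above background, and all 8 lay below 0, against 53.7% of all genes above background. Pcdh11x passed this filter only through the heterozygous RNA, where it read higher, so its sign is not independent of the filter. Of the 9, 0 rose, 1 fell and 8 did not pass, where 1.87% of all genes fell. An unadjusted p under 0.05 in limma was found for 4 of the 9 and for 20.5% of all genes. These numbers describe the family, and no test sets it against other families. The median was below 0 on each array, between -0.24 and -0.04, and the number of members below 0 was 9, 7 and 8 on the Cy5-null arrays of pools 1, 2 and 3 and 8, 7 and 5 on the Cy3-null arrays. Across the 16 settings tried the family median ran from -0.23 to -0.09, with 8 or 9 members below 0.

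Pcdh8, which in rat neurons controls the surface level of N-cadherin, had levels of 9.14, 9.33 and 9.02 in the null RNA and 9.61, 9.44 and 9.50 in the heterozygous pools. Every null reading lay below every heterozygous level, but pool 2 stood apart with a ratio of -0.11 where the others both read -0.47. Its ratio was -0.35 ± 0.21 (limma adjusted p = 0.132), and 5 of the 6 arrays lay below 0. Pcdh18, a delta protocadherin whose tail binds the adaptor Dab1 in mouse, read -0.15, -0.19 and -0.09 in the pools, with all 6 arrays below 0. Its ratio of -0.14 ± 0.048 had an adjusted p of 0.0897 in limma. Pcdh10, which takes part in the growth of striatal axons in mouse, read -0.15, -0.22 and -0.07, with a mean of -0.15 ± 0.076 (limma adjusted p = 0.131). Its further probe above background read -0.23 ± 0.12 and had the same sign in every pool.

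The other delta protocadherins varied more between pools or dyes. Pcdh19, mutated in a human epilepsy that mostly affects girls, read -0.21, -0.43 and 0.08 in the pools. Its mean of -0.19 ± 0.26 was smaller than the spread (limma adjusted p = 0.439), and its further probe above background read -0.02 ± 0.026. Pcdh17, found at developing synapses of the basal ganglia in mouse, read -0.27 and -0.20 in pools 1 and 2 but 0.29 in pool 3, and its further bright probe read -0.58, -0.15 and 0.14 in the same order. Both probes thus had pool 3 above 0 and pools 1 and 2 below. Pcdh1 depended on the dyes: it read -0.66, 0.03 and -0.57 on the Cy5-null arrays and 0.10, -0.01 and 0.27 on the Cy3-null arrays, for a mean of -0.14 ± 0.14. Pcdh11x read -0.02 ± 0.0019 from a dim probe, and Pcdh7, at -0.07 ± 0.099, was not above background. Of the 9 genes, Pcdh8, Pcdh9 and Pcdh17 lie on chromosome 14, Pcdh10 and Pcdh18 on chromosome 3 and Pcdh11x and Pcdh19 on the X chromosome.

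**Figure D2:**
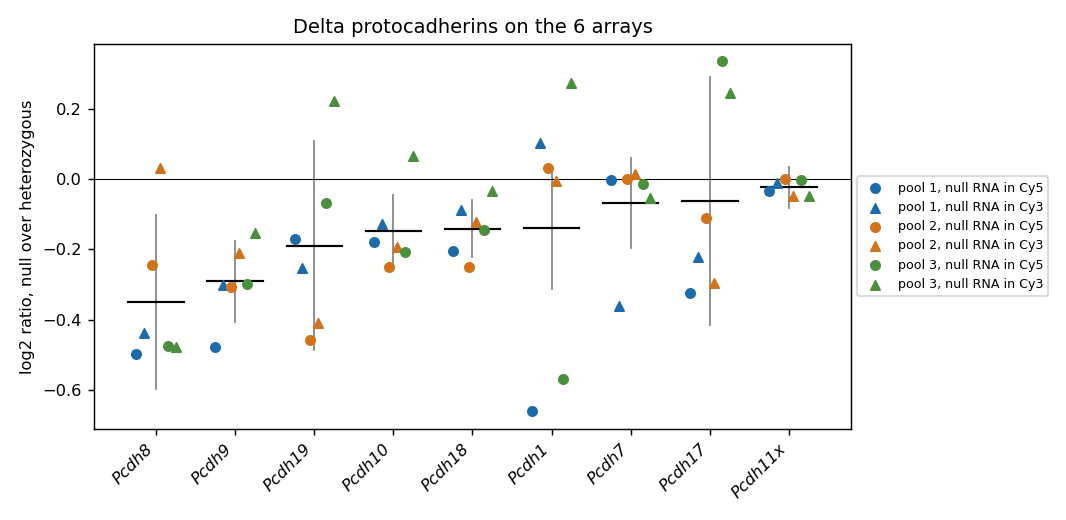
Log2 ratio of null over heterozygous on the 6 arrays (y axis) for the 9 delta protocadherins, with colours for pools and shapes for dye orientation. Black bars are means of 3 pools and grey lines are limma's 95% intervals. Pcdh9 and Pcdh18 lie below 0 on all 6 arrays, and Pcdh1 is far below 0 on 2 of the Cy5-null arrays.

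Of the 5 type I classical cadherins, 0 passed the test and 4 were above background, with a median ratio of -0.01. The lowest ratio of all members was that of Cdh4, or R-cadherin, which guides axons in the developing brain. Its levels were 9.44, 9.44 and 9.52 in the null RNA and 9.90, 9.60 and 9.99 in the heterozygous pools. Every null reading lay below every heterozygous level, and all 6 arrays lay below 0, between -0.61 and -0.11. Its ratio of -0.36 ± 0.17 had a 95% interval of -0.57 to -0.15 and an adjusted p of 0.0893 in limma, and its 2 further probes were not above background. Cdh2, or N-cadherin, the main classical cadherin of neural tissue, read -0.02, -0.16 and 0.05 in the pools and -0.04 ± 0.11 in the mean. A further bright probe of Cdh2 read -0.21 ± 0.18, with pool 2 lowest in both probes. Cdh15, the muscle cadherin, read 0.02 ± 0.044. Cdh1, or E-cadherin, had a signal above background on 1 array in each RNA, short of the 3 required.

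Type II cadherins sort neurons into nuclei and layers. Of the 12, 0 passed the test, 8 were above background and the median was -0.01, with ratios from -0.24 to 0.03. Cdh24, a broadly expressed member, read -0.55, -0.17 and -0.01 in the pools. Its mean of -0.24 ± 0.28 thus rested on pool 1, and the ratio without that pool was -0.09 (limma adjusted p with all pools 0.363). Cdh10 read -0.12, -0.03 and -0.17 from a dim probe, -0.10 ± 0.070 in the mean (limma adjusted p = 0.230). Cdh8, a cadherin of thalamic and hippocampal circuits, read 0.03, -0.11 and -0.07, -0.05 ± 0.073 in the mean. Cdh6, Cdh9 and Cdh19 were not above background on any array in either RNA, so no ratio is given for them.

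Among the 6 other cadherins 1 rose, Cdh26, where 3.09% of all genes rose. Ratios above 0 were found for 5 of the 6, beside 8736 of all 18295 genes. Cdh23, which forms the tip links of inner ear hair cells with Pcdh15, read 0.17, 0.09 and 0.09 in the pools and lay above 0 on all 6 arrays. Its ratio was 0.12 ± 0.043 (limma adjusted p = 0.114), with a signal above background on 3 arrays in the null and on 1 in the heterozygous RNA. Pcdh15 read 0.12, -0.07 and -0.09, and its mean of -0.01 ± 0.11 was far inside its spread. Cdh16, the kidney cadherin, read 0.03 ± 0.039 and Cdhr2, a brush border protein gene of the gut, 0.05 ± 0.042, both smaller than or close to their spread. Cdh17, the intestinal cadherin, was not above background on any array.

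**Figure D3:**
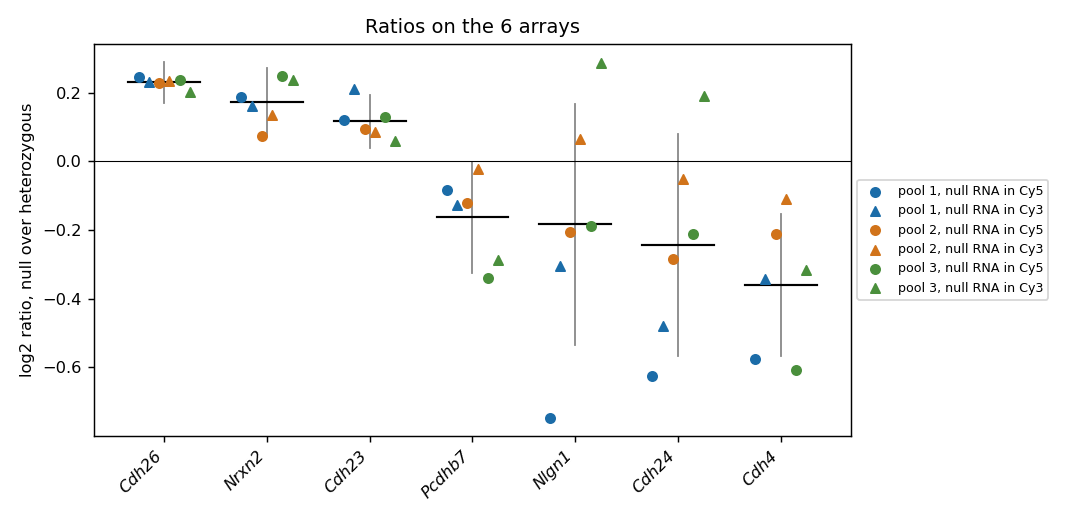
Log2 ratio of null over heterozygous on the 6 arrays (y axis) for 7 adhesion genes of other families, with colours for pools and shapes for dye orientation. Black bars are means of 3 pools and grey lines are limma's 95% intervals. The arrays of Cdh26 lie between 0.20 and 0.25, those of Cdh4 all lie below 0, and those of Nlgn1 and Cdh24 lie on both sides of 0.

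The 24 clustered protocadherins comprised 2 genes of the alpha, 21 of the beta and 1 of the gamma cluster. Of these, 0 rose, 0 fell and 24 did not pass, and 13 were above background. Their median was -0.0047, with 13 ratios below 0 and a range of -0.16 to 0.06. Pcdhb7 had levels of 7.24, 7.27 and 7.29 in the null RNA and 7.35, 7.34 and 7.60 in the heterozygous pools. All 6 arrays lay below 0, and every null reading lay below every heterozygous level. Pool 3, however, gave -0.31 where pools 1 and 2 gave -0.10 and -0.07. Its ratio was -0.16 ± 0.13 (limma adjusted p = 0.239). Pcdhb17 also had pool 3 lowest, at -0.04, -0.07 and -0.32 in pools 1, 2 and 3, and read -0.15 ± 0.15. Pcdhb4 read -0.07 ± 0.099.

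The alpha genes Pcdha6 and Pcdha11 read 0.03 ± 0.23 and 0.03 ± 0.053, and the gamma gene Pcdhga11 read -0.04 ± 0.059. The 9 probes of Pcdhga11 above background ran from -0.14 to 0.16, so its value depends on the probe. Genes within a cluster are similar in sequence, and alpha and gamma transcripts share their last exons. Whether a probe bound transcripts of several neighbours was not tested, because probe sequences were not examined. The values of single clustered genes stay uncertain.

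All 6 contactins gave small ratios, from -0.05 to 0.06, with limma adjusted p-values from 0.454 to 0.948. Cntn1, the contactin of nodes and paranodes, read 0.00, 0.03 and 0.14 in the pools and 0.06 ± 0.073 in the mean, and its further bright probe read -0.03 ± 0.14. Cntn2, known as TAG-1 on growing axons, read 0.02, -0.05 and -0.12, for a mean of -0.05 ± 0.071. Cntn6 read 0.12, 0.08 and -0.02, for a mean of 0.06 ± 0.070, and Cntn4 and Cntn5 read -0.03 ± 0.045 and -0.0049 ± 0.023. For these brightest probes no mean stood clear of the spread between pools. A further probe of Cntn5, above background in the heterozygous RNA on 3 arrays and in the null RNA on 0, read -0.11, -0.18 and -0.11 in the pools, -0.13 ± 0.044 in the mean, and was thus below 0 in each pool where the brightest probe was near 0. Cntn3 was not above background on any array.

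The contactin-associated proteins are the membrane partners of contactins along the axon. Of 7, 0 passed the test and 3 were above background. Cntnap2, the partner of Cntn2 and a gene linked to autism in human, read -0.04, -0.04 and -0.09 in the pools. Its mean of -0.06 ± 0.028 had an adjusted p of 0.317 in limma, and its 5 probes above background ran from -0.06 to 0.08. Cntnap1, the partner of Cntn1, read 0.01 ± 0.059, and Cntnap4 read -0.02 ± 0.023. The 3 Cntnap5 genes and Cntnap3 were not above background.

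Among the neurexins, Nrxn2 was above background in both RNAs on every array, and its level was 7.30, 7.31 and 7.37 in the null and 7.12, 7.21 and 7.12 in the heterozygous RNA. Every null reading was the higher, and all 6 arrays lay above 0, between 0.07 and 0.25. Its ratio of 0.17 ± 0.069 did not pass (limma adjusted p = 0.0876), and its further bright probe read 0.05 ± 0.027. Nrxn3 read 0.01, -0.05 and -0.08 in the pools and -0.04 ± 0.046 in the mean (limma adjusted p = 0.525). Of its 10 probes 1 was above background.

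All 3 neuroligins lay below 0, where 52.2% of all genes did, and 0 passed the test. Nlgn1, the neuroligin of excitatory synapses, read -0.53, -0.07 and 0.05 in the pools, so that its mean of -0.18 ± 0.30 came from pool 1 (limma adjusted p = 0.541). It also depended on the dyes, with a mean of -0.38 on the Cy5-null and 0.01 on the Cy3-null arrays. Its further bright probe read -0.24, -0.36 and -0.04. Nlgn2, the neuroligin of inhibitory synapses, read -0.05 ± 0.060 (limma adjusted p = 0.534), and Nlgn3, found at both kinds of synapse, read -0.10, 0.07 and -0.17, for a mean of -0.07 ± 0.12 (limma adjusted p = 0.607).

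How firmly small differences can be read depends on the signal. With a signal above background in either RNA on 3 or more arrays, 53 members (67.9%) counted as above background, against 67.2% of all genes. Of these, 35 were so in both RNAs on every array, as were 8289 of all 18295 genes. On no array were 12 members and 3177 of all genes above background. A signal above background on every array in one genotype and on no array in the other was found for 0 members and for 0 of all genes. For the 35, every 95% interval of limma lay inside 2-fold in either direction, and 34 lay inside 1.5-fold, all but that of Pcdh8. With plain subtraction, which does not shrink ratios, 35 and 27 did. The share of all genes with such intervals was not counted. For these 35 genes a difference of 2-fold from this null pool was outside the measured interval, and for the 12 no statement on size can be made.

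Among members above background, 37 of 53 (69.8%) had a ratio below 0, against 53.7% of all genes above background, and their median was -0.0242 (SD of the pools' medians 0.0063) against -0.0074. Of the 53, Pcdh11x, Pcdhb14, Pcdhb19 and Cdh3 passed the filter only through the heterozygous RNA, and Cdh22 and Cdh23 only through the null RNA. Each read higher in the RNA that let it pass, so these signs are not independent of the filter. The median size of the members' ratios, 0.0477, was below the 0.0659 of all such genes. Genomic span also differed, and its part in this shift was not tested. The 53 members had a median span of 94.0 kb against 21.3 kb for all genes above background with a known span, and across the 12264 such genes longer ones read lower in the null pool (Spearman's rho = -0.256). Among the 53 members rho was 0.17, and among the 40 outside the clusters 0.075. Genes are not independent replicates in these values, and all share the same arrays. With the trend on span removed, 29 of the 53 were below 0, beside 6471 of the 12264 genes. The members' median was then -0.0064 against -0.0060 for all genes above background. Families moved in different directions: of the 24 clustered protocadherins 20 were then below 0, where 13 were in the main setting. These genes are short, with a median span of 3520 bases, and only 13 of them were above background. Their median moved from -0.0047 to -0.0265. The delta protocadherins then had 8 of 9 below 0 and a median of -0.13, Cdh26 read 0.26 (limma adjusted p = 0.0292), and Pcdh9 read -0.25 (limma adjusted p = 0.0526), just outside the threshold.

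Further probes gave a second reading of some members. Of the 78 genes, 46 had several probes, with 135 further probes, of which 30 were above background. Of these 30, 19 shared the sign of the probe used for the gene and 11 did not. Dye orientation mattered about as often as elsewhere: 15 of the 53 members above background (28.3%) had means of opposite sign in the 2 orientations, as had 27.5% of all genes above background.

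**Figure D4:**
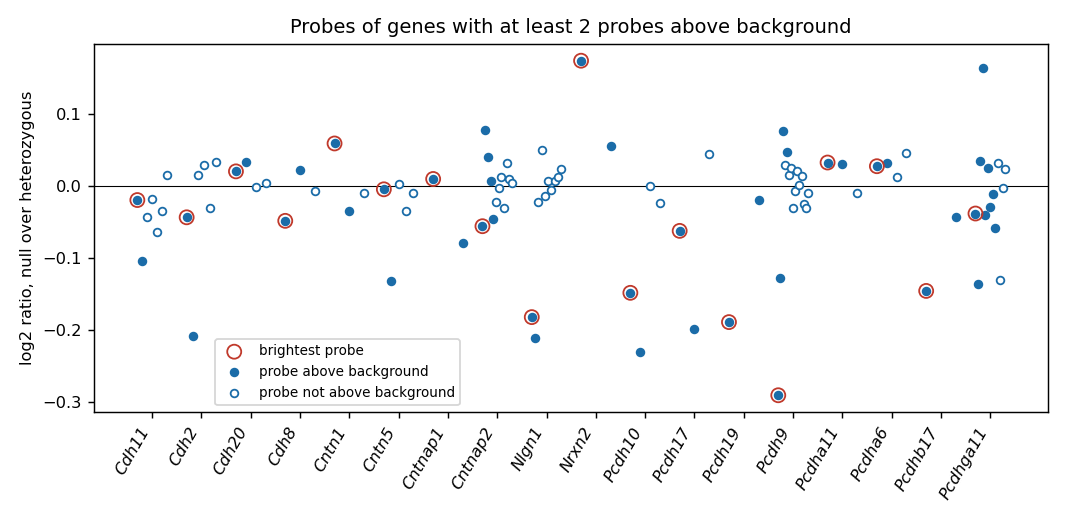
Log2 ratio of null over heterozygous (y axis, mean of 3 pools) of every probe of the adhesion genes that had at least 2 probes above background. Ringed points are the brightest probes, whose values stand for the genes, filled points are above background and open points are not. The probes of Pcdh9 lie on both sides of 0 with the brightest at -0.29, and those of Pcdhga11 above background run from -0.14 to 0.16.

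Partners of these families were read from lists of known binding proteins and regulators. Of 11 catenins and junction anchors, 0 rose and 1 fell, 7 were above background and the median was -0.09. The fall was in Afdn, which encodes afadin, an anchor of nectins and cadherin junctions to actin, at -0.43 ± 0.049 (limma adjusted p = 0.0261). Its pools read -0.49, -0.42 and -0.39, and its 4 further probes above background ran from -0.30 to 0.03. The beta-catenin gene Ctnnb1 and the neuronal alpha-catenin gene Ctnna2, named here after their values were seen, read -0.19 ± 0.089 and -0.26 ± 0.13 (limma adjusted p = 0.0983 and 0.104). Of 16 atypical and desmosomal cadherins, 0 rose and 1 fell, and the median was -0.0002. The fall was in the giant cadherin gene Fat1 at -0.41 ± 0.093 (limma adjusted p = 0.0339), with pools at -0.31, -0.50 and -0.42 and both further bright probes below 0.

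Of 37 ligands, partners and scaffolds of neurexins and neuroligins, 2 rose and 0 fell, with a median of -0.0054. Nxph3, a secreted ligand of alpha-neurexins, read 0.39, 0.46 and 0.48 in the pools and rose by 0.44 ± 0.044 (limma adjusted p = 0.0261). Mdga2, which binds neuroligins and keeps neurexins off them, read 0.31, 0.20 and 0.26 and rose by 0.26 ± 0.055 (limma adjusted p = 0.0394). Both lay above 0 on all 6 arrays. Nxph3 had 1 probe, and of the 7 probes of Mdga2 only the brightest was above background. Of 22 immunoglobulin-class adhesion and amyloid precursor family genes, 2 rose and 2 fell, with a median of -0.04. Ratios below 0 were found for 15 of the 22, beside 52.2% of all genes. The lowest and highest, named outside the rule, did not pass: Dscam at -0.68 ± 0.32 and Cadm1 at 0.23 ± 0.16 (limma adjusted p = 0.0817 and 0.189). Each kept 1 sign on all 6 arrays.

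In that list Aplp2, an amyloid precursor-like protein gene, read -0.48, -0.45 and -0.44 and fell by 0.45 ± 0.020 (limma adjusted p = 0.0260). Nfasc, or neurofascin, whose glial form binds the complex of Cntn1 and Cntnap1, rose by 0.20 ± 0.045 (limma adjusted p = 0.0453), and Dscaml1, a homophilic adhesion protein gene, by 0.20 ± 0.042 (limma adjusted p = 0.0462). The other fall, named outside the rule for named genes, was in the synaptic adhesion gene Cadm2 at -0.17 ± 0.021 (limma adjusted p = 0.0450). Its 2 further bright probes read -0.07 and -0.04, and those of Dscaml1 both read 0.04. Nfasc and Aplp2 had no further probe above background. Of 9 genes of protein shedding and of protocadherin cluster regulation, 0 rose and 0 fell (1 at an unadjusted p under 0.05), with a median of 0.0016. Over the 5 lists, 4 of 95 genes rose and 4 fell, beside 3.09% and 1.87% of all genes.

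**Figure D5:**
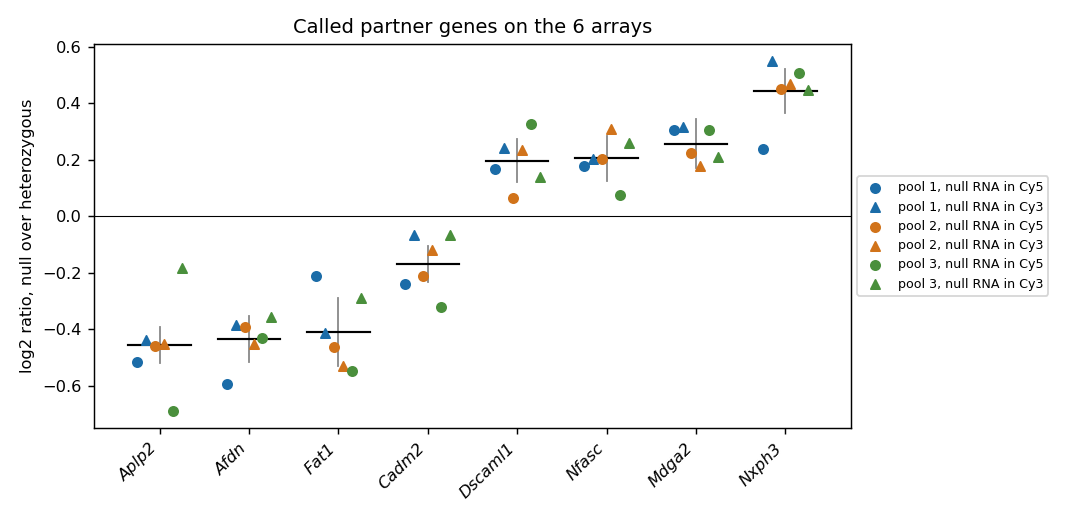
Log2 ratio of null over heterozygous on the 6 arrays (y axis) for the 8 partner genes that passed limma's adjusted p, with colours for pools and shapes for dye orientation. Black bars are means of 3 pools and grey lines are limma's 95% intervals. Each gene keeps 1 sign on all 6 arrays, and Nxph3 is lowest on the Cy5-null array of pool 1.

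The sorted cells were checked against cell type markers. Between 54.6% and 68.8% of all genes were well above background in the null RNA on an array and between 47.6% and 71.4% in the heterozygous RNA. Of 10 dopaminergic markers 7 were above background, and Th and En1 were so on no array. Their summed signal was 1112 to 1259 in the null and 1181 to 1480 in the heterozygous RNA. Of the 10, 6 had ratios below 0, 0 rose and 1 fell, Slc6a3 at -0.42 ± 0.018 (limma adjusted p = 0.0260). Its signal was above background on 2 arrays in the null and on 6 in the heterozygous RNA. The 9 general neuronal markers, all above background, summed to 2979 to 3061 in the null and 3255 to 3352 in the heterozygous RNA, without overlap, and 9 radial glia markers, 8 of them above background, to 5826 to 6038 and 4712 to 5438, in the other direction. The 10 endothelial markers (7 above background) summed to 1297 to 1320 against 1460 to 1677, and Cdh5, the endothelial cadherin left out of the set, read -0.18 ± 0.099, while Pecam1 and Tie1 were above background on no array. The 9 markers of mesenchyme (6 above background, Lum on no array) summed to 758 to 760 against 716 to 755. The 5 of erythroid cells (4 above background) summed to 676 to 735 against 585 to 655. Both sums were higher in the null RNA, but 5 of the 9 mesenchyme markers had ratios below 0, with a median of -0.0045. The 8 microglial markers (7 above background) overlapped, at 602 to 645 against 589 to 637. Called markers were 0 higher and 1 lower for neurons, 0 and 2 for endothelium, 1 and 0 for mesenchyme and 1 and 0 for erythroid cells. For radial glia and microglia they were 0 and 0. Of all genes, 3.09% rose and 1.87% fell. Markers of neurons and vessels thus summed lower in the null RNA, and those of radial glia higher. Sums weigh bright genes most. Median ratios in pools 1, 2 and 3 were -0.13, -0.21 and 0.03 for neurons, 0.01, -0.13 and -0.02 for endothelium. For radial glia they were 0.17, 0.05 and 0.14. Ratios lay below 0 for 8 of 9 neuronal and 7 of 10 endothelial markers, and above 0 for 8 of 9 radial glia markers. In the same order, 1, 2 and 3 markers kept 1 sign on all 6 arrays. The part of these markers in the ratios of the adhesion genes was not tested. In bulk RNA, fewer cells of a type and less RNA per cell cannot be told apart.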

How the data were processed

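RNA of sorted neurons went through 2 rounds of T7 amplification and was hybridised to 6 two-colour arrays, per the labels' protocols. Per the file headers, the deposited scanner tables hold the mean intensity of each spot and the median and SD of its local background. The authors' normalized intensity values and their deposited series table of log2 values, which equals log2 of normalized Cy5 over Cy3, served as an alternative. Their scale is therefore log2, array medians lay between -0.000583 and 0.00233, the direction was settled by the labelled dyes, and the normalization behind them is unstated. Of 41174 non-control probes, 34186 carried 1 gene symbol and 6988 none. Symbols were updated through a RefSeq table (GRCm38.p6) for 3726 probes, and all 78 members were found there.

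Normexp correction of the background in limma used an offset of 50, which shrinks dim ratios toward 0. Loess within arrays followed, with weight 0 for control spots. Ratios were turned to null over heterozygous, and the 2 arrays of a pool were averaged (n = 3). The brightest probe stood for a gene. Ratios were tested against 0 with lmFit and eBayes (limma 3.58.1, R 4.3.3) and Benjamini-Hochberg adjustment over 18295 genes, threshold 0.05. A spot over 2 background SDs brighter than the local median was above background, and a gene needed this on at least 3 arrays in either RNA. The number of arrays limits the precision, and no slide or scan batch is used here. The fit was tested on simulated data.

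Text names every member past the threshold, every contactin, neurexin and neuroligin, up to 3 members above background with the largest ratios in each other family, and up to 3 called genes of each partner list. Genes outside this rule are described as part of their family. Members, lists and rules were chosen with earlier results of these data known. Alternatives covered background, normalization, dyes, probes, variance models, span and each pool left out.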

Additional observations from a re-analysis of the deposited data

Results flagged for a closer look

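Nxph3 was the only one of the 38 named genes with a stray array by Dixon's ratio, which picks out about 5% of such sets of values by chance. Its Cy5-null array of pool 1 read 0.24, and the other 5 read 0.45 to 0.55. Both arrays of a pool hold the same RNA, so the 6 values are not independent.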

How the results depend on the processing

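The counts of 1 higher and 1 lower member were the same without background correction, with the authors' values and with the dim-probe filter. They were 0 and 0 with plain background subtraction, median centring, a trended robust variance and no moderation, where 0 of all genes passed in limma or the unmoderated test (3305, 2604, 3069 and 2573 at an unadjusted p under 0.05). Leaving out each pool in turn gave 0 to 0 for both, with 0 calls among all genes in limma (2956 to 3259 unadjusted), since 2 pools are then left. With the 6 arrays in 1 model with a dye term and pool as a random block they were 2 (Cdh26, Nrxn2) and 4 (Cdh4, Pcdh8, Pcdh9, Pcdh18), among 2221 calls against 908, since paired arrays then add to the sample. On the Cy5-null arrays they were 1 and 3, and on the Cy3-null arrays, with the mean over probes or with the span trend removed they were 1 and 0. The members' median of -0.0159 moved to -0.0561 with plain subtraction, -0.0058 with median centring, -0.0242 with the dim-probe filter, which leaves 53 members, -0.0106 with the mean over probes, -0.0046 on the Cy5-null arrays and -0.0045 with the span trend removed. It lay between -0.0138 and -0.0079 without 1 pool or another. Of the 38 named genes, 28 kept their sign in all 15 alternatives. Signs turned on the Cy5-null arrays for Cdh15 (-0.032), Cntn5 (0.023), Nrxn3 (0.0044) and Pcdh15 (0.013), on the Cy3-null arrays for Nlgn1 (0.015), with the mean over probes for Cntn4 (0.0018), Cntnap1 (-0.035) and Cntnap2 (0.0019), with median centring for Cntn5 (0.0087), and with the span trend removed for Cntn4 (0.020), Cntn5 (0.043), Cntnap4 (0.019), Nrxn3 (0.0063) and Pcdh15 (0.036). Leaving out each pool gave ranges across 0 for Cdh15 (-0.0019 to 0.042), Cdh2 (-0.089 to 0.015), Cntn5 (-0.018 to 0.0033), Cntnap1 (-0.020 to 0.040) and Pcdh15 (-0.077 to 0.025). Where no construction is named, the cause was not tested. No paired analysis was possible because each pool enters as its own ratio to the same null pool. Signal over background limits 25 members that were not above background, and 1 null pool limits all of them.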
